A study of Saccharomyces cerevisiae with 6 samples.

Results

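The 2 dye-swap pairs of the frataxin-depletable yeast strain tetYFH1, pair B and pair A, were compared ORF by ORF, to see which genes and processes responded alike in both and where the pairs parted. The comparison used 4 of the 6 two-colour arrays of the series, arrays B1 and B2 (titled B, Exp 1 and Exp 2) and arrays A1 and A2 (titled A, Exp 1 and Exp 2), and all 6174 measured open reading frames (ORFs) of Saccharomyces cerevisiae. Each array set RNA of cells given 2 µg/ml doxycycline for 10 h against RNA of untreated cells (0 h), and the values are the log2 ratios, treated over untreated, that the authors deposited. A reading given without decimals is exactly that whole number. Both pairs carry the same genotype, strain BQS201, which is W303-1A with tetO7-YFH1::kanMX4, so that the frataxin gene YFH1 stands under a tet promoter that doxycycline regulates. The remaining 2 arrays form the W303 pair, in which the parent strain W303-1A received the same treatment with YFH1 under its own promoter. All cultures grew in the rich medium YPG at 30 °C.

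Frataxin is a mitochondrial protein that takes part in building iron-sulfur clusters, and yeast cells that lack it are known to load iron into their mitochondria. The activator Aft1 reads the cell's iron-sulfur supply and turns on the iron uptake genes, the iron regulon, when that supply is short. Yeast also trades growth against protection: fast growth goes with high expression of ribosome genes, and slow growth or stress with high expression of the Msn2 and Msn4 targets, of trehalose and glycogen synthesis and of chaperones.

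Each pair counted as 1 sample, since the labels do not say whether its 2 arrays come from separate cultures or RNA extracts, nor whether each pair had untreated RNA of its own. The difference between the pairs therefore has no test of its own, and it is described by size: an ORF was counted where the pair means differed by at least 2-fold (1 on the log2 scale) and both B arrays lay on the same side of both A arrays. A limma fit with the 6 arrays as units was run beside it; its p-values measure only the spread between arrays of a pair, which may be technical. The arrays of pair B spread more widely (SD of the log2 ratios 0.744 on B1 and 0.654 on B2) than those of pair A (0.397 on A1 and 0.392 on A2), and B2 had a median of 0.21, while the other tetYFH1 arrays lay between 0.00 and 0.03. Over all ORFs, Pearson's r was 0.399 between B1 and B2, 0.596 between A1 and A2, and 0.197 to 0.324 between a B and an A array; the arrays of a pair may share their RNA. These are ratios from bulk cultures, so fewer cells of a kind and less RNA per cell cannot be told apart.

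YFH1 (YDL120W), the targeted gene, was read first. Its log2 ratio was −5.38 on B1 and −5.11 on B2, against −2.64 on A1 and −3.29 on A2, and −0.08 and −0.05 on the W303 arrays. It was low on all 4 tetYFH1 arrays and lower on both B arrays than on either A array, which fits the label of the strain in both pairs. The means, −5.24 ± 0.19 in pair B and −2.97 ± 0.46 in pair A (SD over 2 arrays), correspond to 37.9-fold and 7.82-fold lower YFH1. The difference was −2.28, or 4.85-fold, with a limma 95% interval of −3.02 to −1.53 and an adjusted p of 0.0175. Between arrays of the same dye orientation it was −2.74 (B1 minus A1) and −1.81 (B2 minus A2). Scaling divided each centred array by its median absolute deviation, the median distance of its values from their median. This was 0.274 on B1, 0.337 on B2, 0.201 on A1 and 0.184 on A2. After centring and scaling the YFH1 difference was −0.51, so the size of the gap depends on whether the wider spread of pair B is kept. The chromosomal neighbours HEM25, a mitochondrial glycine carrier, and EXP1 did not differ beyond the spread of their arrays (differences of −0.06 and −0.15).

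At the 2-fold threshold, what both pairs shared was almost entirely on the lower side, and general stress genes and genes of non-fermentable carbon use were among it. A 1.5-fold threshold gave a less one-sided split, listed with the processing alternatives below. At least 2-fold lower in both pairs were 45 ORFs (0.729% of all), which is 20.2% of the 223 ORFs so lowered in pair B (3.61% of all) and 72.6% of the 62 so lowered in pair A (1% of all). Of pair A's 62, 51 (82.3%) were below 0 on both B arrays, and of pair B's 223, 148 (66.4%) were below 0 on both A arrays. Over all 6174 ORFs, the mean of pair B was below 0 at 2061 and that of pair A at 2705, so some of this agreement in sign holds for any ORF. Of the 45, 13 belong to the list of general stress genes (32 measured) and 10 to that of Adr1 targets and peroxisomal genes (30 measured). The median log2 ratios of the 45 were −2 in pair B, −1.49 in pair A and 0.06 in the W303 pair, where the median over all ORFs was 0.05. In the W303 pair, 18 of the 45 were below 0 on both arrays and 5 had a mean below −1. A whole log2 number stood on at least 1 B array for 25 of them.

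**Figure D1:**
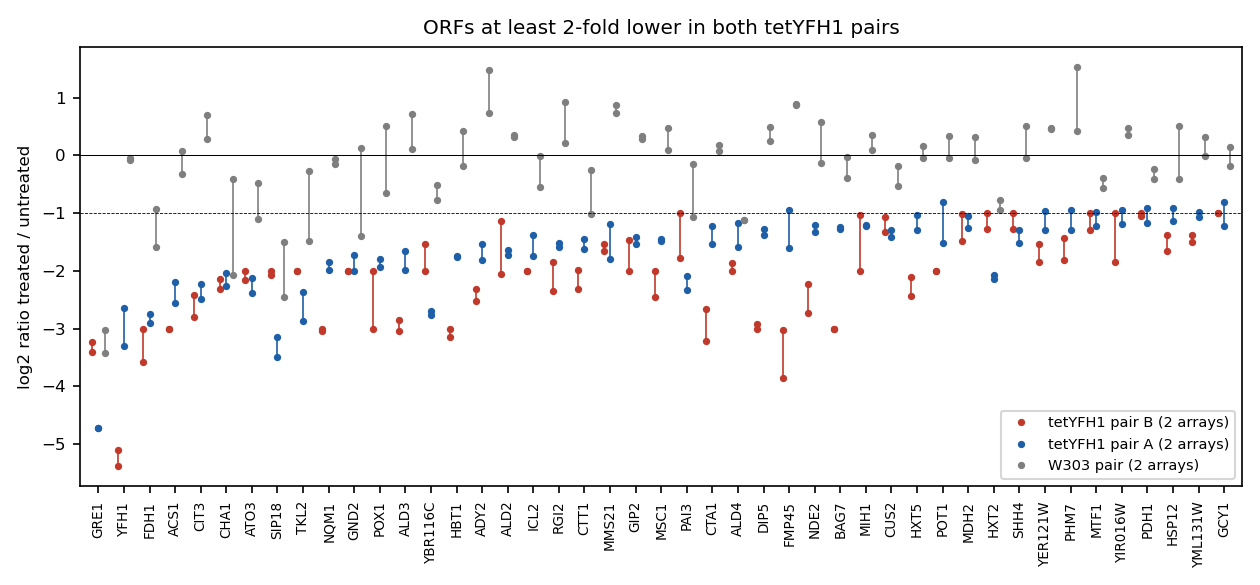
The log2 ratio of treated over untreated cells on each array (points, joined per pair; pair B red, pair A blue, W303 pair grey) for the 45 ORFs at least 2-fold lower in both tetYFH1 pairs, ordered by the smaller of the 2 pair means. The dashed line marks 2-fold lower; most W303 points lie above it, while GRE1 and SIP18 lie below it in all 3 pairs.

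The genes low by the most in both pairs include enzymes of acetate, propionate and formate use. FDH1, formate dehydrogenase, read −3 and −3.57 in pair B, against −2.90 and −2.74 in pair A. ACS1, which makes acetyl-CoA from acetate, read −3 on both B arrays, against −2.18 and −2.56 in pair A. CIT3, a mitochondrial citrate and methylcitrate synthase, read −2.81 and −2.41 in pair B, against −2.22 and −2.49 in pair A. In these 3 genes the pairs stood within 1 log2 unit of each other. CHA1, the serine and threonine deaminase, read −2.13 and −2.31 in pair B, against −2.03 and −2.25 in pair A, and ATO3, of the acetate and ammonium transporter family, read −2 and −2.16 against −2.12 and −2.38. CHA1 and ATO3 were also below 0 on both W303 arrays (−0.41 and −2.07 for CHA1, −1.11 and −0.47 for ATO3).

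How far these genes were lowered varied between the pairs. Of the 45, 33 were lower in pair B than in pair A and 12 were lower in pair A, and in 33 the pair means were within 1 log2 unit. By the pair means alone 10 were at least 2-fold lower in pair B, YFH1 among them. FMP45, a membrane protein of the cell periphery, read −3.02 and −3.86 in pair B, against −0.94 and −1.60 in pair A, a difference of −2.17 (limma adjusted p 0.0321). CTA1, the peroxisomal catalase, read −2.66 and −3.21 in pair B, against −1.53 and −1.23 in pair A (difference −1.56, adjusted p 0.0706). Only GRE1 and SIP18, hydrophilins made under water loss, were at least 2-fold lower in pair A than in pair B. GRE1 read −3.22 and −3.41 in pair B, against −4.72 on both A arrays, which is the lowest value on each of them, and SIP18 read −2.08 and −2 in pair B, against −3.50 and −3.15 in pair A. Both were also low in the W303 pair, GRE1 at −3.02 and −3.42 and SIP18 at −2.45 and −1.50.

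Higher in both pairs by at least 2-fold were 3 ORFs (0.0486% of all), or 0.965% of the 311 so raised in pair B (5.04% of all) and 5.36% of the 56 so raised in pair A (0.907% of all). PRP43, a helicase of splicing and ribosome assembly, read 0.50 and 2.11 in pair B, against 1.09 and 1.31 in pair A. SEC5, an exocyst subunit, read 4.33 and 0.49 in pair B, against 1.57 and 0.77 in pair A. ARB1, an ATPase of ribosome biogenesis, read 0.71 and 1.29 in pair B, against 0.08 and 3.28 in pair A. All 3 had arrays of one pair that stood more than 1 apart.

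The pairs parted by the 2-fold rule at 480 ORFs (7.77% of all), 276 higher in pair B (4.47%) and 204 lower (3.3%). Centring each array on its median turned this split to 204 higher and 256 lower, so that 44.3% of the counted ORFs were higher, against 57.5% without centring; centring and scaling gave 154 and 255. The 276 had a median log2 ratio of 1.20 in pair B, −0.06 in pair A and −0.52 in the W303 pair, and the 204 had −1.10, 0.22 and 0.13. The pair means had opposite signs in 154 of the 276 and in 118 of the 204. limma passed 15 ORFs higher in pair B (0.243% of all) and 36 lower (0.583%), all of them among the 480, and the adjusted p of single genes are from this fit over 6 arrays. On the 4 tetYFH1 arrays alone limma passed 0 and 0, with a smallest adjusted p of 0.173 and 806 ORFs at an unadjusted p under 0.05, so no call of the 6-array fit held there.

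**Figure D2:**
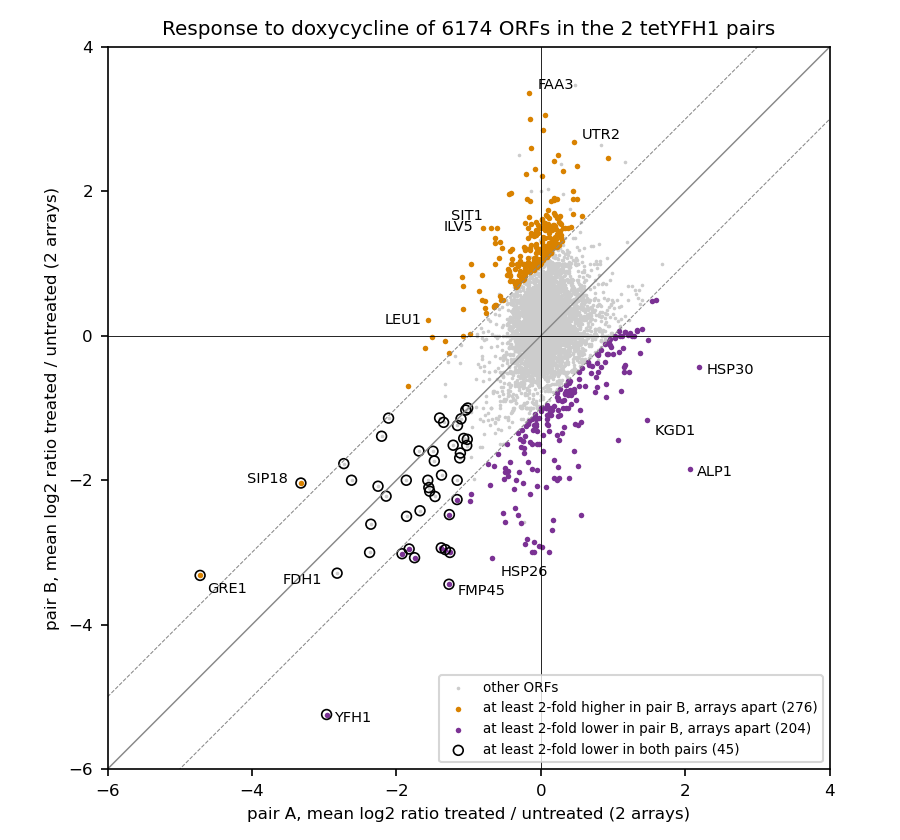
Mean log2 ratio of pair B (vertical axis) against that of pair A (horizontal axis) for 6174 ORFs, with the solid line at equal values and dashed lines 2-fold to either side. Orange and purple points are the 276 ORFs higher and the 204 lower in pair B by the 2-fold rule, and black rings are the 45 ORFs lower in both pairs, with YFH1 farthest down.

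Many genes of the cytosolic ribosome were higher in pair B. The 132 cytosolic ribosomal protein genes had a median log2 ratio of 1.01 in pair B, 0.20 in pair A and −0.49 in the W303 pair. Both B arrays lay above both A arrays in 107 of the 132 (against 26.2% of all ORFs), and 51 (38.6%, against 4.47% of all ORFs) were at least 2-fold higher and 0 lower. Their median difference was 0.87, against 0.08 over all ORFs, and it was 0.93 and 0.80 within the 2 dye orientations. The copies RPS25B and RPL33B were among those that differed by the most. RPS25B read 2 and 1.36 in pair B, against 0.06 and 0.08 in pair A, and RPL33B read 2 and 1.48, against 0.00 and 0.19. The quartiles of the 132 differences were 0.62 and 1.08, and RPL26A, with −0.48, was the member farthest the other way. Many ribosomal protein genes exist in near-identical copies, so a signal may belong to either copy. limma passed 0 of the 132 after adjustment (1 with the dye orientation as a replicate block), and 76 had an unadjusted p under 0.05, all of them higher in pair B. The count of 51 became 15 after scaling, 18 without B1 and 66 without B2.

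The ribosome assembly factors showed the same direction with less agreement between the B arrays. The 112 genes had medians of 0.50 in pair B, −0.15 in pair A and −0.55 in the W303 pair, with 29 higher (25.9%, against 4.47% of all ORFs) and 1 lower in pair B. The 29 became 16 after scaling, 52 without B1 and 21 without B2. Their median difference of 0.61 was 0.93 without B1 and 0.27 without B2, and 0.32 and 0.92 within the dye orientations of Exp 1 and Exp 2. NSR1, the yeast nucleolin, read 2.32 and 1.63 in pair B, against −0.57 and −0.26 in pair A (difference 2.39, limma adjusted p 0.0175). DBP2, a helicase of RNA processing, read 1 and 1.44 in pair B, against −0.28 and −0.80 in pair A (difference 1.76, adjusted p 0.0457). The 1 lower member was NOP12, a nucleolar protein needed for the large ribosomal subunit. It read −2.83 and −3 in pair B, against 0.06 and −0.10 in pair A and −0.43 and −0.97 in the W303 pair, and its difference of −2.89 had the smallest adjusted p of the ORFs with a symbol (0.0059).

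Further growth lists had median differences above that of all ORFs, with few members past 2-fold. RNA polymerases I and III had 3 of 24 higher in pair B (RPA135, RPA43 and RPA34), the translation factors 1 of 36 (YEF3, an elongation factor) and the cytosolic aminoacyl-tRNA synthetases 4 of 18 (MES1, WRS1, KRS1 and HTS1), each list with 0 lower. These are 12.5%, 2.78% and 22.2% of the lists, against 4.47% of all ORFs, so the share of the translation factors was below that of all ORFs. The polymerase and synthetase counts both became 0 after scaling, and the synthetases had 0 of 9 among members with no whole number on a B array; without B1 the polymerases had 7, and without B2 the translation factors had 5. The median differences were 0.53, 0.37 and 0.37. Of 31 cyclin, replication and ribonucleotide reductase genes, RNR1 and CLN2 were higher in pair B (differences of 1.57 and 1.13). Of 26 genes of daughter cell separation and the cell wall, UTR2 and GAS1 were higher. These are 6.45% and 7.69% of the lists, not far from the 4.47% of all ORFs. Both counts became 1 after scaling (3.23% and 3.85%, against 2.49%). UTR2, a chitin transglycosylase of the wall, read 3 and 2.36 in pair B, against 0.67 and 0.26 in pair A (difference 2.22, adjusted p 0.0222). The 9 core histones had 0 members past 2-fold.

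**Figure D3:**
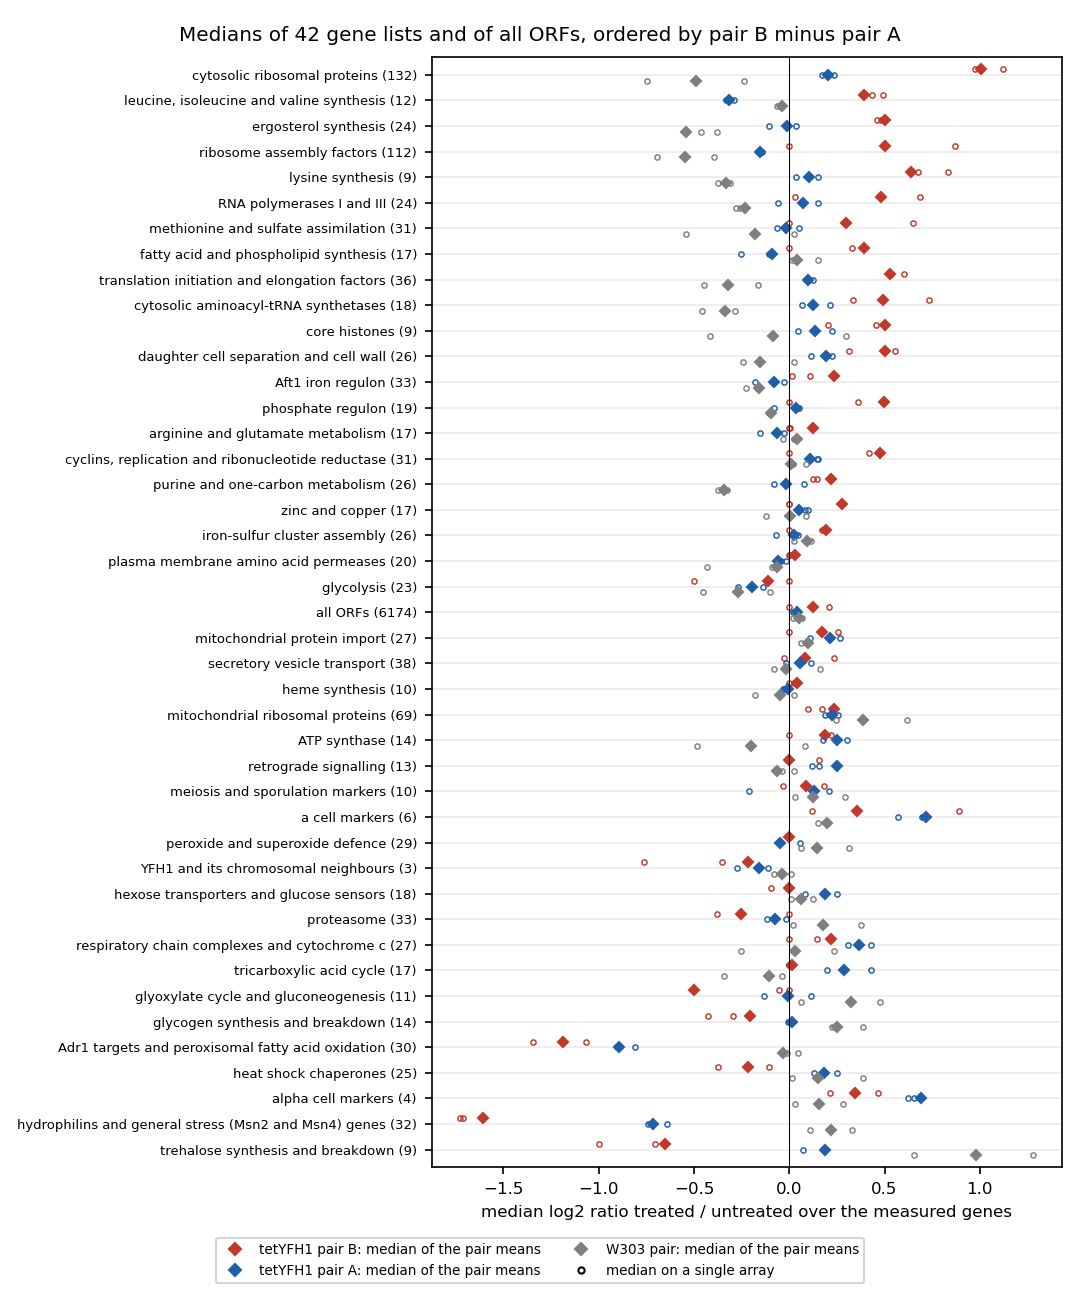
Median log2 ratio of treated over untreated for 42 gene lists and all ORFs (number of measured genes in brackets), ordered by the median of pair B minus pair A with the highest at the top. Diamonds are medians of the pair means and open circles medians on single arrays. Cytosolic ribosomal proteins stand at the top (pair B 1.01, pair A 0.20) and trehalose genes at the bottom (pair B −0.65, pair A 0.19).

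Some genes of amino acid and sterol synthesis were also higher in pair B. Of the 12 genes for leucine, isoleucine and valine, 5 were higher (41.7%, against 4.47% of all ORFs) and 0 lower, with a median difference of 0.69. The 5 became 3 after scaling (25%, against 2.49% of all ORFs). ILV5, a mitochondrial enzyme of that pathway, read 2 and 1.00 in pair B, against −0.80 and −0.79 in pair A (difference 2.29, adjusted p 0.0278). LEU1, an iron-sulfur enzyme of leucine synthesis, read −0.08 and 0.51 in pair B, against −1.71 and −1.41 in pair A and 0.41 and −0.34 in the W303 pair. LEU1 was thus low in pair A and near its untreated level in pair B (difference 1.77, adjusted p 0.0699). BAT1, the mitochondrial branched-chain aminotransferase, read 0.83 and 0.84 in pair B, against −0.42 and −1.21 in pair A. OAC1, the mitochondrial carrier for oxaloacetate and isopropylmalate, read 1 and 0.39 in pair B, against −0.94 and −1.22 in pair A (difference 1.77, adjusted p 0.0422).

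In glutamate and arginine synthesis 3 of 17 genes were higher in pair B (17.6%, against 4.47% of all ORFs), and 0 of the 6 with no whole number on a B array. GDH1, the NADP-dependent glutamate dehydrogenase, read 2.44 and 2 in pair B, against 0.18 and −0.15 in pair A (difference 2.21, adjusted p 0.0175). CPA1, a subunit of carbamoyl phosphate synthetase, read 1 on both B arrays, against −1.0 and −0.95 in pair A (difference 1.97, adjusted p 0.0222). Of 31 genes of methionine and sulfate assimilation 6 were higher (19.4%; 1 of the 11 with no whole number), among them MUP1, the methionine permease (2.55 and 2 in pair B, against 0.51 and 0.11 in pair A), and SAM1, an S-adenosylmethionine synthetase (2.71 and 2 in pair B, against 0.45 and 0.54 in pair A). The list of 9 lysine genes had 0 past 2-fold in either direction, with a median difference of 0.54. The plasma membrane amino acid permeases went both ways, with 2 of 20 higher (MUP1 and MMP1) and 3 lower (ALP1, DIP5 and PUT4). So did purine and one-carbon metabolism, with 2 of 26 higher (IMD4 and ADE4) and 2 lower (ADE16 and ADE17). These are 10% and 15% of the permeases and 7.69% each way of the purine list, against 4.47% higher and 3.3% lower of all ORFs.

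Ergosterol synthesis had 5 of 24 genes higher in pair B (20.8%, against 4.47% of all ORFs) and 0 lower, with medians of 0.50 in pair B, −0.01 in pair A and −0.54 in the W303 pair. The 5 became 2 after scaling and 8 without B2. ERG5, the sterol C-22 desaturase, read 1.83 and 1.97 in pair B, against 0.28 and 0.09 in pair A and −0.96 and −1.68 in the W303 pair (difference 1.71, adjusted p 0.0554). ERG3, ERG11, ERG2 and ERG25 followed, with differences of 1.35 to 1.01. Fatty acid and phospholipid synthesis had 3 of 17 higher (ELO1, ACC1 and OLE1) and the phosphate regulon 3 of 19 (PHO5, PHO84 and PHO11). Zinc and copper genes had 2 higher (ZRT1 and ZRT2) and 1 lower (CTR3) of 17. The shares higher were 17.6%, 15.8% and 11.8%, against 4.47% of all ORFs, and CTR3 is 5.88% of its list, against 3.3%.

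Several uptake genes of the iron regulon were also higher in pair B. Of 33 genes of the Aft1 list 9 were at least 2-fold higher in pair B (27.3%, against 4.47% of all ORFs) and 0 lower, and the medians were 0.23 in pair B, −0.08 in pair A and −0.16 in the W303 pair. The list's median was 0.014 on B1 and 0.11 on B2, against 0.00 and 0.21 over all ORFs, so on B2 it lay below that of all ORFs. The median difference between the pairs was 0.33, and 0.26 and 0.34 within the 2 dye orientations. FET3 and FTR1 form the high-affinity iron uptake system. FET3, the oxidase, read 2 and 1.78 in pair B, against 0.56 and 0.46 in pair A and −0.08 and −0.27 in the W303 pair, and FTR1, the permease, read 1.44 and 1.80, against 0.15 and −0.10 and −0.50 and −1.05. FRE1, the surface ferric reductase, read 0.96 and 1.60 in pair B, against −0.59 and −0.67 in pair A and −1.33 and −1.47 in the W303 pair. All 3 genes were above 0 on both B arrays and above every A and W303 array.

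The siderophore transporters SIT1, ARN1 and ARN2 stood apart in the same direction. SIT1 and ARN1 both read 2 on B1 and 1 on B2; in pair A SIT1 read −0.58 and −0.79 and ARN1 −0.64 and −0.57. ARN2 read 0.00 and −0.03 in pair B, against −1.42 and −1.58 in pair A, so it was near its untreated level in pair B. The low-affinity transporter FET4, the biotin importer VHT1 and BIO5 completed the 9, with differences of 1.13 to 1.06. limma passed FRE1 (difference 1.91, adjusted p 0.0302) and SIT1 (difference 2.19, adjusted p 0.0361).

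**Figure D4:**
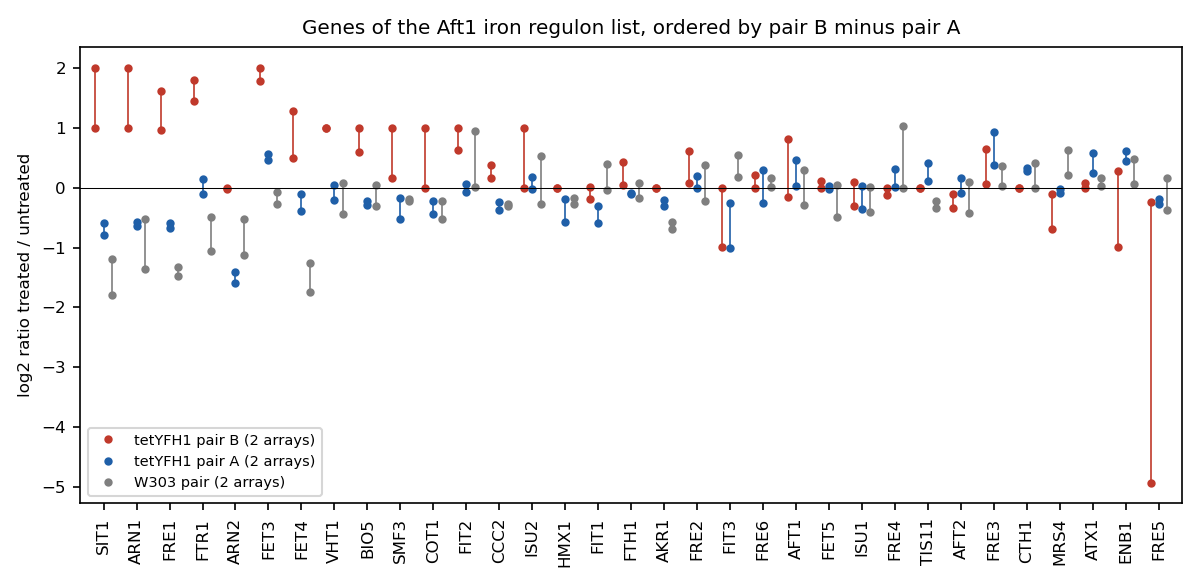
The log2 ratio on each array (points, joined per pair; pair B red, pair A blue, W303 pair grey) for the 33 genes of the Aft1 iron regulon list, ordered by pair B minus pair A. The 9 genes from SIT1 to BIO5 lie higher on both B arrays than on both A arrays by at least 2-fold in the means, and FRE5 stands apart through a single B array.

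Other members of the list stood closer together. The cell wall proteins FIT1 and FIT3 had differences of 0.36 and 0.14, the heme oxygenase HMX1 0.39 and TIS11, which destabilises mRNAs of iron-using proteins, −0.26. FRE5 read −0.24 and −4.92 in pair B, against −0.27 and −0.19 in pair A, a difference of −2.35 that rests on B2 alone. Of the 26 genes of iron-sulfur cluster assembly 0 were higher in pair B and 1, YFH1, was lower, with medians of 0.19 in pair B and 0.02 in pair A. ISA2, which matures mitochondrial iron-sulfur proteins, read 0.09 and 0.00 in pair B, against 0.97 and 0.99 in pair A (difference −0.94). Heme synthesis had 0 of 10 past 2-fold. The count of 9 became 5 higher and 1 lower after scaling (15.2% and 3.03%, against 2.49% and 4.13% of all ORFs). After centring it was 8 and 0 (24.2% higher, against 3.30%). Among the 14 members with no whole number on a B array 3 were higher (21.4%, against 4.24%).

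On the other side, genes of storage and protection were lower in pair B. Of 9 trehalose genes 6 were lower and 0 higher, with medians of −0.65 in pair B, 0.19 in pair A and 0.98 in the W303 pair. That is 66.7% of the list, against 3.3% of all ORFs, and the median difference of −1.05 was −1.09 and −1.01 within the 2 dye orientations. TPS2, the trehalose-6-phosphate phosphatase, read −2 on both B arrays, against 0.54 and −0.10 in pair A (difference −2.22, adjusted p 0.0222). PGM2, a phosphoglucomutase, read −1.60 and −1.84 in pair B, against 0.22 and 0.15 in pair A and 1.20 and 1.5 in the W303 pair (difference −1.91, adjusted p 0.0227). TSL1, TPS1, NTH1 and UGP1 had differences of −1.65 to −1.04. Of 14 glycogen genes GSY1, GAC1 and GLC3 were lower in pair B (21.4%, against 3.3% of all ORFs). GSY1, a glycogen synthase, read −1.93 and −2 in pair B, against 0.37 and −0.01 in pair A (difference −2.14, adjusted p 0.0222).

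Among 25 heat shock chaperones 7 were lower in pair B (28.0%, against 3.3% of all ORFs) and 1 higher (4%, against 4.47%), with medians of −0.22 in pair B, 0.18 in pair A and 0.15 in the W303 pair, and a median difference of −0.67 and −0.26 within the 2 dye orientations. HSP26, a small heat shock protein, read −3.04 and −3.12 in pair B, against −0.63 and −0.73 in pair A (difference −2.40, adjusted p 0.0117). HSP104, which takes protein aggregates apart, read −2.46 and −1.17 in pair B, against 0.25 and 0.22 in pair A (difference −2.05, adjusted p 0.0605). The Hsp90 HSP82 and its partner STI1 were lower in pair B as well, by −1.31 and −1.59, as were HSP42, SSE2 and HSP78. The 1 higher chaperone was SSB1, a ribosome-bound Hsp70 that helps nascent chains fold, at 0.63 and 0.34 in pair B, against −0.82 and −0.73 in pair A.

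The general stress genes were low in both pairs and lower in pair B. The 32 genes of the list had medians of −1.61 in pair B, −0.71 in pair A and 0.22 in the W303 pair. Both pairs shared 13 of them at 2-fold lower (against 0.729% of all ORFs), such as CTT1, the cytosolic catalase, and HSP12, a membrane-protecting stress protein, which read −1.38 and −1.66 in pair B, against −1.13 and −0.92 in pair A. By the 2-fold rule 12 were lower in pair B (37.5%, against 3.3% of all ORFs) and 2, GRE1 and SIP18, were higher (6.25%, against 4.47%). XBP1, a repressor induced by stress, read −1.96 and −2.43 in pair B, against 0.01 and −0.32 in pair A (difference −2.05, adjusted p 0.035). After centring and scaling, the median difference shrank to −0.16 with 4 higher and 4 lower (12.5% each, against 2.49% and 4.13% of all ORFs). The count thus depended on the wider spread of pair B.

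Few carbon and respiration genes were past 2-fold between the pairs, though several of these lists had medians somewhat lower in pair B. The 30 Adr1 targets and peroxisomal genes were low in both, with medians of −1.19 in pair B and −0.89 in pair A, and 10 were among the 45 shared ORFs. Without scaling 0 were higher in pair B and 4 lower (CTA1, GUT1, JEN1 and GUT2), or 13.3%, against 3.3% of all ORFs. Both B arrays lay below both A arrays in 16 of the 30 and above in 1, against 18.8% and 26.2% of all ORFs. Their median difference of −0.41 turned to 0.15 after centring and scaling, when 2 were higher and 0 lower (6.67% higher, against 2.49% of all ORFs). CIT2, the peroxisomal citrate synthase, read −1.76 and −1.49 in pair B, against −0.11 and −0.35 in pair A and 1.57 and 2.00 in the W303 pair. The tricarboxylic acid cycle (1 of 17, 5.88%), the respiratory chain (1 of 27, 3.70%) and the glyoxylate cycle with gluconeogenesis (1 of 11, 9.09%) each had a single lower member and 0 higher. The share over all ORFs was 3.3%, and the ATP synthase had 0 of 14. In the respiratory chain both B arrays lay below both A arrays in 10 of 27 genes and above in 5. Its median difference was −0.29 and −0.12 within the 2 dye orientations. The 69 mitochondrial ribosomal proteins, with medians of 0.23 in pair B, 0.22 in pair A and 0.39 in the W303 pair, had 1 higher (MRPL44) and 1 lower (MRPL19). The proteasome had 0 of 33 past 2-fold. Peroxide and superoxide defence had 1 of 29, the catalase CTA1.

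Markers of other cell states were looked at for a difference in the make-up of the cultures. Of 6 markers of a cells, 4 of alpha cells and 10 of meiosis and sporulation, 0 were past 2-fold in either direction, with median differences of −0.12, −0.53 and −0.07. As 7.77% of all ORFs were past 2-fold, 0 among so few markers says little. Both B arrays lay below both A arrays in 3 of the 4 alpha markers and above in 1, against 18.8% and 26.2% of all ORFs. After scaling 1 of the 4 was lower in pair B (25%, against 4.13% of all ORFs). Ratio arrays carry no level, so whether these markers were expressed at all was not tested.

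Single genes with the widest gaps were of 2 kinds. In the first kind both arrays of each pair read alike. HSP30, a plasma membrane stress protein, read −0.53 and −0.34 in pair B, against 1.79 and 2.60 in pair A and 1.10 and 1.41 in the W303 pair (difference −2.62, adjusted p 0.0137). CYC8, a general corepressor, read −1.76 and −1.13 in pair B, against 1.29 and 0.85 in pair A (difference −2.51, adjusted p 0.0188). PRB1, the vacuolar protease B, read −1.57 and −2.04 in pair B, against 0.70 and 0.33 in pair A (difference −2.32, adjusted p 0.0158). The 2 pairs thus ran in opposite directions at these 3 genes. NUP53, a nuclear pore subunit, AVO2, a subunit of the TORC2 kinase complex, and BDH2 had differences of −2.72, −2.84 and −2.32, with values near 0 in pair A. On the higher side FCY2, the purine and cytosine permease, read 2.20 and 1.58 in pair B, against 0.02 and −0.39 in pair A (difference 2.08, adjusted p 0.0299). GND1, of the pentose phosphate pathway, read 1.73 and 1.56 in pair B, against −0.24 and −0.09 in pair A (difference 1.81, adjusted p 0.0263).

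In the second kind one array stood far from the other of its pair. Among the 276 ORFs higher in pair B, the 6 widest gaps were at FAA3, MIL1, SRB5, YAE1, RAD61 and MED1, which read 4 to 6.19 on B1 but 0.00 to 1.13 on B2, and none of them passed limma. FAA3, an acyl-CoA synthetase, read 6.19 and 0.54 in pair B, against −0.13 and −0.20 in pair A (difference 3.53, adjusted p 0.255). NCE101 had a mean gap of similar width (2.99) but is not among the 276, as its B2 value of 0.0072 lay below both A arrays (0.26 and 0.70) while B1 read 6.94. B1 read 4 or more at 17 ORFs, whose median on B2 was 0.38 and in pair A 0.00. Among the 276 higher ORFs the B arrays differed by more than 1 in 58 (21.0%), and among the 204 lower ones in 27 (13.2%). In pair A the arrays stood more than 1 apart at ALP1, a basic amino acid permease (−1.69 and −2 in pair B, against 3.17 and 0.96 in pair A), and at KGD1, of the 2-oxoglutarate dehydrogenase complex (−1 and −1.34 in pair B, against 2.76 and 0.20 in pair A). Both genes were lower in pair B in each dye orientation, with differences of −4.85 and −2.96 at ALP1 (adjusted p 0.0181) and −3.76 and −1.54 at KGD1 (adjusted p 0.112). With CYC8 they were the 3 ORFs with a symbol whose pair means were at least 2-fold off in opposite directions, each pair with one sign.

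Exactly whole log2 numbers set pair B apart from the other arrays. They made up 2603 values on B1 (42.2%) and 1524 on B2 (24.7%), against at most 8 on any other array. Most were 0 (1708 on B1 and 880 on B2), then 1 (403 and 490) and −1 (382 and 111). At 3223 ORFs (52.2%) at least 1 B array had one, and at 904 both had, with the same number on both in 479. Of B2's whole numbers 59.3% fell on ORFs that were whole on B1 too.

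**Figure D5:**
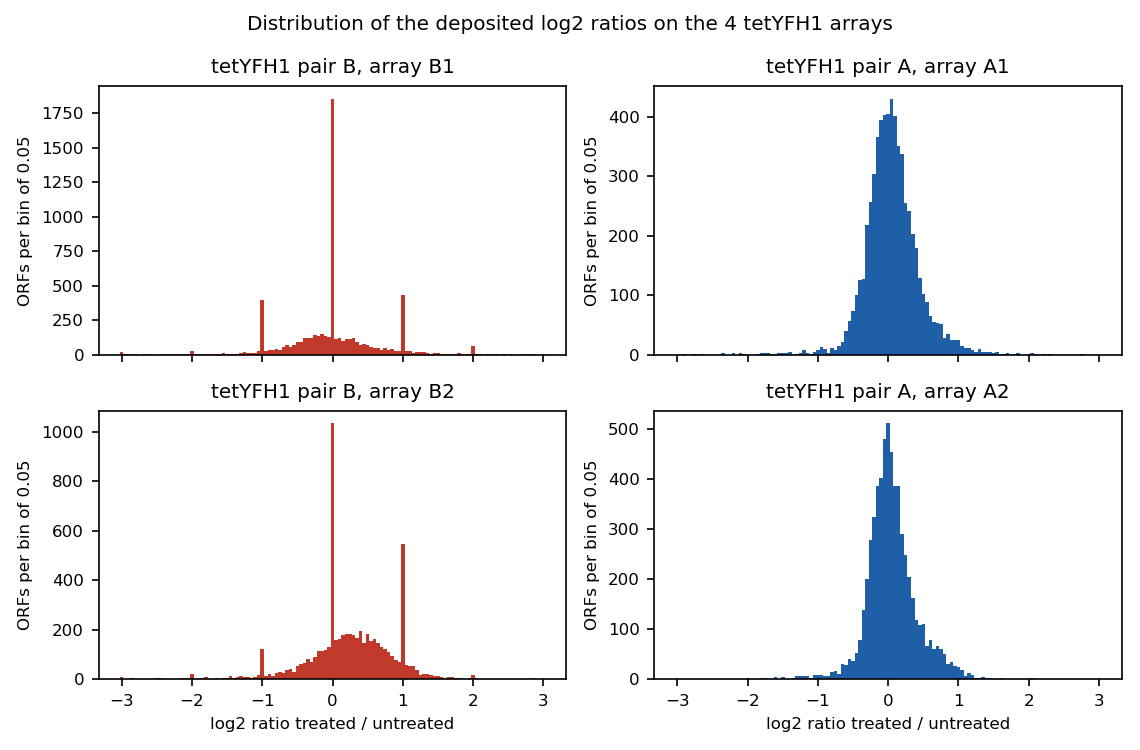
Number of ORFs per 0.05 of log2 ratio on the B arrays (left, red) and the A arrays (right, blue), over the range from −3 to 3. The B arrays carry spikes at whole numbers, of which 0 is the tallest, and the A arrays have none; the vertical scales differ between panels.

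Whole numbers on one B array were followed in part by the other. Where B1 read −1, 0, 1 and 2, the median on B2 was 0.00, 0.19, 0.47 and 1.00 and the median in pair A was −0.02, 0.03, 0.09 and 0.11. Where B2 read −1, 0 and 1, the median on B1 was −0.39, 0.00 and 0.00. It was 0.00 as well where B2 held a value between 0.5 and 1.5 that was not whole. With 1708 B1 values at exactly 0, a median of 0.00 on B1 says little by itself. The quartiles on B1 did differ, at −0.19 and 0.10 where B2 read 0 and at 0 and 0.76 where B2 read 1. Between B1 and B2 Pearson's r was 0.402 over ORFs whole on both and 0.420 over the 2951 ORFs whole on neither. By the 2-fold rule 4.87% of the ORFs whole on both were higher in pair B and 2.77% lower, against 4.24% and 3.49% of those whole on neither. Leaving out every ORF with a whole number on a B array left 125 of the 276 higher and 103 of the 204 lower ORFs. Of the ribosomal proteins, 24 of the 60 genes without such a number were higher (40%, against 4.24% of all ORFs without one). For single genes the steps limit the precision: TPS2, CPA1, ACS1 and the iron genes SIT1 and ARN1, among others, had whole numbers on both B arrays. How they arose was not tested, and the labels do not mention them.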

How the data were processed

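Total RNA (8 µg per sample, from 30 ml of culture at an A600 of 0.5) was labelled with Cy5 or Cy3 and hybridised to two-colour arrays, per the labels' protocols. The treated sample carried Cy5 in Exp 1 and Cy3 in Exp 2, per the labels. The authors deposited 1 log2 ratio of treated over untreated per ORF and array, used here unchanged. How the ratios were normalized, background-corrected or filtered is not stated in the sources used here. The base follows from the values: 2 to the power of the value had 3 decimals at 100% of ORFs on B1 and B2 (tolerance 0.001 in the last decimal). On A1 and A2 this held at 48.0% and 50.2% of ORFs, and on the W303 arrays at 49.7% and 48.8%. The deposited values of pair B thus differ in form from those of pair A beyond the whole numbers, and the reason was not tested. YFH1 below 0 on the tetYFH1 arrays fits ratios of treated over untreated, and the W303 direction rests on the labels alone. ORFs were matched by locus tag to the R64 gene table for names (5675 matched, 499 kept their ORF name, 5158 had a symbol). No coordinates or sequences were used.

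Arrays of a pair were averaged, which cancels a dye effect, and pair A was subtracted from pair B. limma 3.58.1 (R 4.3.3, 3 groups, 3 residual and 6.98 prior degrees of freedom, Benjamini-Hochberg adjustment over 6174 ORFs, threshold 0.05) was the alternative test. On simulated data of this comparison with 6174 ORFs it recovered 23.4% of changes of 1, 97.6% of 2 and 99.9% of 3 in log2 ratio, and 7.51% of its calls were false; 1.00% of unchanged ORFs passed the 2-fold rule. How far these shares hold under the wider spread of pair B, its whole numbers or RNA shared within a pair was not tested. The number of arrays limits the precision. Other alternatives were centring and scaling, 1.5-fold and 4-fold thresholds, leaving out arrays and leaving out whole-number ORFs. Scaled values were the centred values over the array's median absolute deviation, times the mean of that deviation over the 4 tetYFH1 arrays. The deviation of B1 includes its 1708 values of exactly 0, which is also its median.

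The comparison, the 42 gene lists and the rules were chosen with earlier results of these data known. Genes named are YFH1 and its neighbours, the 12 widest differences in each direction (again among ORFs without whole numbers), the 12 lowest and highest in both pairs, up to 10 opposite ones, and per list all members past 2-fold plus up to 5 of the widest. FIT1, FIT3, TIS11, HSP12, RPL26A and the ORFs that passed limma were named after their values were seen.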

Additional observations from a re-analysis of the deposited data

Results flagged for a closer look

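Some lists and genes lay on opposite sides of 0 in the 2 tetYFH1 pairs, on every array of each pair. These differences between pairs were not tested, since each pair is 1 sample. Among the lists, the median difference of pair B minus pair A was 0.33 for the Aft1 iron regulon and 0.69 for leucine, isoleucine and valine synthesis, both above 0 in pair B and below 0 in pair A. The Aft1 medians lay close to 0 (0.014 on B1 and 0.11 on B2), and on B2 below the median of all ORFs (0.21). It was −1.05 for trehalose and −0.42 for heat shock chaperones, both lists being negative in pair B and positive in pair A.

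Among the genes with the widest differences, FAA3 (3.53), RAD61 (2.74), DBP10 (2.41), BMT6 (2.39), NSR1 (2.39), ILV5 (2.29), MID2 (1.99), FRE1 (1.91), TRM11 (1.86) and GND1 (1.81) were above 0 on both B arrays and below 0 on both A arrays. ALP1 (−3.91), KGD1 (−2.65), HSP30 (−2.62), CYC8 (−2.51), AIM17 (−2.37), PRB1 (−2.32), RGI1 (−2.23) and HSP104 (−2.05) ran the other way. The B1 values of FAA3 (6.19), RAD61 (4.82) and BMT6 (4) stood far above their B2 values (0.54, 0.38 and 0.63). AIM17 and RGI1 were below 0 in pair B (−2.24 and −1.71, −1.88 and −2.06), against 1.60 and 2.18 for AIM17 and 1.66 and 3.08 for RGI1 in the W303 pair.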

How the results depend on the processing

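By the 2-fold rule 4.47% of ORFs were higher and 3.3% lower in pair B, 45 ORFs were lower in both pairs and 3 higher in both. Centring and scaling gave 2.49% higher, and took the YFH1 difference to −0.51 and the median difference of the Adr1 list to 0.15. Over ORFs with no whole number on a B array, 4.24% were higher (125 ORFs) and 3.49% lower (103), 20 were lower in both, and the mitochondrial ribosomal proteins (median difference −0.01) stood at 0.017. A 1.5-fold threshold gave 14.0%, 8.76%, 91 ORFs and 40 ORFs, and a 4-fold threshold 0.292%, 0.518%, 9 and 0. Leaving out ORFs whose arrays of a pair differ by more than 1, an alternative chosen after seeing the data, left 0 higher in both. With 1 array left out, 4.91% to 9.31% of ORFs were higher (9.31% without B1, 7.0% without B2), 3.37% to 7.40% were lower (7.40% without B2), and 39 to 49 and 2 to 13 ORFs (13 without B1) were lower and higher in both. The mitochondrial ribosomal proteins ran from −0.057 to 0.010 (without A1), and YFH1 from −2.60 to −1.95.

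limma passed 0.243% of ORFs as higher and 0.583% as lower with the 6 arrays as units, with 833 ORFs (13.5%) at an unadjusted p under 0.05. With the Exp number, which is also the dye orientation, as a replicate block it passed 0.599% (37 ORFs) and 0.826% (51), with a YFH1 adjusted p of 0.00507. Same-numbered arrays of pairs B and A deviated together weakly (r 0.111), and those of either pair with W303 had r of −0.161 and −0.0861, so the numbers were not taken as pairing. On the 4 tetYFH1 arrays alone limma passed 0 and 0 (smallest adjusted p 0.173, 806 ORFs or 13.1% at an unadjusted p under 0.05). Of 42 list medians, 29 kept their sign and moved by less than the spread between dye orientations after scaling, 30 after centring and 26 without whole-number ORFs. Signal over background was not analysed here, so dim spots could not be told apart.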

Other observations

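Of the 36 ORFs that limma passed as lower in pair B, 10 had no symbol in the gene table. Among these, 6 share an annotated length of 1323 bases, and they are all the measured ORFs without a symbol of that length. Their pair means lay between −3 and −2.82 in pair B, against −0.19 to 0.11 in pair A and −0.70 to −0.05 in the W303 pair. On A2 they read within −0.2714 to −0.2697. Whether they are near-identical copies that share 1 signal, and so should not count as 6 of the 36, was not tested. These ORFs were singled out after their values were seen.

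That value on A2 recurs elsewhere. The log2 ratio of −0.27 was the most repeated value of A2, at 22 ORFs exactly and at 42 within 0.001, of which 9 encode cytosolic ribosomal proteins. On A1 the most repeated value, 0.03, stood at 17 ORFs.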
